A study of Xiphophorus maculatus with 65 samples.

Results

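Skin of *Xiphophorus maculatus* JpA, an inbred platyfish strain, was compared between fish of 24 months and fish of 20 months. The members are all JpA skin libraries whose sample name carries a date in October and either age, which gave 21 of the 65 libraries of the series. The 24-month group holds 16 libraries with 13 October in the name, 2 for each of 8 hours of sacrifice (2, 5, 8, 11, 14, 17, 20 and 23 h), each with its own fish label. The 20-month group holds 5 libraries with 5 October in the name, 3 designated Sham (fish labels n, x and z) and 2 designated 0pt (fish labels x and z), for which no hour is given. All 21 libraries come from untreated control fish per the labels, and the series as a whole compares this strain with JpB in skin and liver. Age goes with the date in the name. It also goes with the designation, since only 20-month libraries carry Sham or 0pt and only 24-month libraries carry an hour. The effects of age, date and designation cannot be told apart here. The labels do not say whether x and z are the same fish under both designations, so p-values measure the spread between libraries.

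Fish skin is renewed by dividing cells of the epidermis, and the transcripts of mitosis and chromosome condensation are made mainly in cycling cells. Most tissues of fish also carry a circadian clock, in which activators such as Clock drive the *per* genes, whose products repress those activators over the day. A gene that follows this clock can differ between groups of fish sacrificed at other hours, and in whole tissue fewer cells of a type and less RNA per cell cannot be told apart.

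Total counts were 30135657 to 40610539 per library at 24 months and 27235335 to 32974415 at 20 months. No pair of libraries agreed within sampling noise (smallest chi-square per degree of freedom 41.8 over 210 pairs). Libraries 24-month ag (17 h) and 20-month Sham z stood apart from the rest. Library ag set the first principal component, with 21.3% of the variance. Sham z was highest on the second, at 169.8, with 19.2% of the variance. The second component also spread the 24-month libraries, with 11 and 14 h at 52.5 to 86.6 and 5 and 17 h at -70.9 to -38.0. In ag the 71 cytosolic ribosomal protein genes summed to 289637 CPM (counts scaled to a total of 1e+06 after TMM), against 68150 to 84125 CPM in the other 24-month libraries and 72549 to 94830 CPM at 20 months. The epidermal list, which holds *epcam*, *tp63* and the junction genes *dsp*, *ppl* and *perp* (14 tested), summed to 5068 to 13922 CPM at 24 months and 7979 to 11361 CPM at 20 months, and its defining markers were detected in every library. The defining liver markers *fgb*, *plg* and *serpinc1* had medians of 0.525, 0.236 and 0.279 CPM at 24 months and of 0.84, 0.268 and 0.192 CPM at 20 months. Single libraries were higher, with *fgb* and *plg* at 3.97 and 2.52 CPM in 24-month m (14 h), and at 12.5 and 3.06 CPM in 20-month Sham x. In the hepatocyte list 19 of 32 members matched no symbol. Its 11 tested members summed to 37.0 to 82.8 CPM at 24 months and 44.6 to 101.4 CPM at 20 months. Of its other members, *fga* was at 9.79 to 30.45 CPM and *apoc1* at 4.38 to 40.8 CPM over all libraries.

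The first question was how many genes differed between the ages with the hours of the 24-month fish pooled. Of 20144 genes tested, 319 were higher (1.58%) and 229 lower (1.14%) at 24 months at an adjusted p under 0.05 (edgeR quasi-likelihood test, Benjamini-Hochberg adjustment over all genes tested). A gene was called when it also changed at least 2-fold and reached an area under the ROC curve of 0.8, the limits of the study's methods. This left 341 genes, 239 higher (1.19%) and 102 lower (0.506%). Without library Sham z 183 genes were called, 148 of them higher. Without Sham x it was 201, and with both libraries that stand apart left out it was 286.

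Genes of cell division were higher in the 24-month fish. The list, chosen with earlier results of these data known, has 56 members, of which 6 matched no symbol. Of the 50 tested, 32 rose, none fell and 18 did not pass, where 1.58% of all genes tested were higher. Of the 32, 29 were called, where 1.19% of all genes tested were called higher. The median log2 fold change of the 50 was 1.18, against 0.02 over all genes tested. Those that rose include *top2a* (topoisomerase that untangles sister chromatids), *ncapg* (condensin subunit), *anln* (anillin, a scaffold of the cleavage furrow), *nusap1* (spindle microtubule binding) and *ccna2* (cyclin A). *top2a* lies on chromosome 10 from 22592803 to 22612946.

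*top2a* was at 27.5, 45.2 and 102 CPM (lowest, median and highest) at 24 months, against 23.7 CPM in Sham n, 22.6 in 0pt x, 12.7 in Sham x, 16.3 in 0pt z and 17.5 in Sham z at 20 months. Every 24-month library was above every 20-month one. The log2 fold change was 1.46 ± 0.27 (SE; edgeR adjusted p = 0.0066). *anln* was at 22.8, 39.4 and 118 CPM at 24 months, against 16.9, 14.8, 8.22, 13 and 21.9 CPM in the 20-month libraries in the same order, again without overlap (log2 fold change 1.77 ± 0.34 SE; edgeR adjusted p = 0.0073). *ncapg* was at 11.3, 20 and 47.5 CPM, against 9.88, 7.41, 5.16, 6.79 and 8.98 CPM (log2 fold change 1.63 ± 0.28 SE; edgeR adjusted p = 0.0035).

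Both libraries of 20 h held the highest *top2a*, *anln* and *ncapg* values of the day, and both of 11 h the lowest. The groups of the other 2 did not overlap either. *nusap1* was at 10.4 to 44.1 CPM at 24 months, against 5.79 to 9.29 CPM at 20 months. *ccna2* was at 11.2 to 44.6 CPM, against 5.24 to 9.95 CPM. Of the 50 genes tested in the list, 8 were higher without overlap, where 0.382% of all genes tested were.

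**Figure D1:**
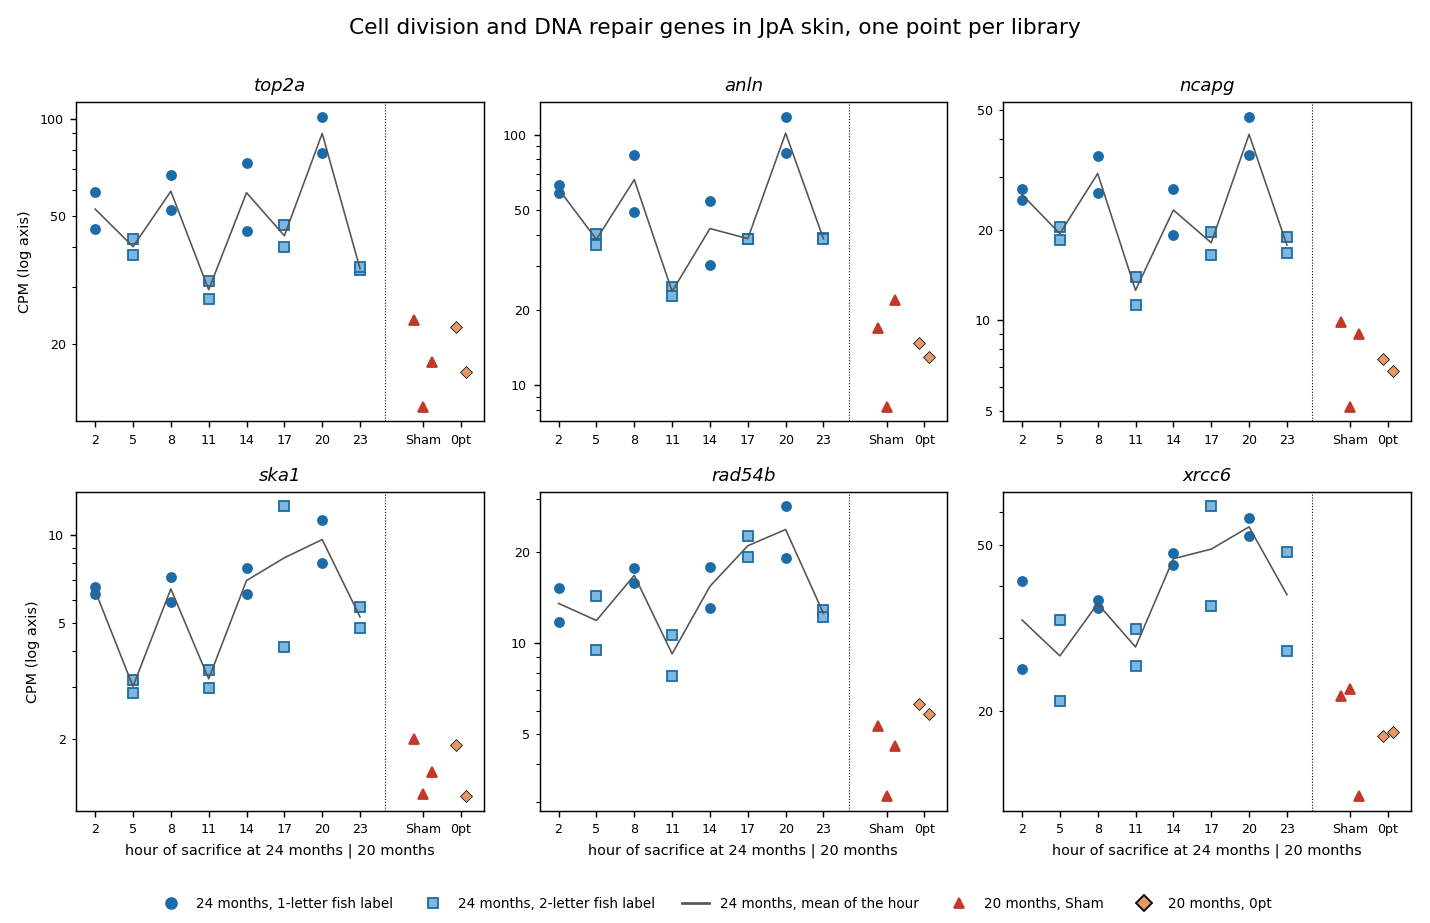
CPM (log axis) of *top2a*, *anln*, *ncapg*, *ska1*, *rad54b* and *xrcc6* by hour of sacrifice at 24 months, with 20 months to the right, 1 point per library. The line joins the means of each hour, and the 20-month points lie below all 24-month points for every gene but *xrcc6*, whose lowest 24-month library (21.1 CPM) is under the highest 20-month one (22.5 CPM).

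Of the genes called higher with a symbol, a mean of at least 1 CPM and no overlap, the 10 with the largest fold were *ska1*, *dlgap5*, *cdkn2c*, *numa1*, *anln*, *hmmr*, *spag5*, *ncapg*, *rad54b* and *tacc3*, with log2 fold changes between 1.60 and 1.95. In mammals *ska1* joins kinetochores to microtubules, and *dlgap5*, *numa1*, *hmmr*, *spag5* and *tacc3* build or hold the mitotic spindle. *rad54b* is a helicase-like factor of homologous recombination. *ska1* led with 2.87 to 12.6 CPM at 24 months, against 1.27 to 1.99 CPM at 20 months (log2 fold change 1.95 ± 0.33 SE; edgeR adjusted p = 0.0036). *cdkn2c*, an inhibitor of G1 cyclin-dependent kinases, was at 2.48 to 13.9 CPM at 24 months, against 0.859 to 2.26 CPM at 20 months (log2 fold change 1.82 ± 0.38 SE; edgeR adjusted p = 0.012).

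Several genes that license and start DNA replication did not pass. The 6 subunits of the replicative helicase, *mcm2* to *mcm7*, had log2 fold changes of 0.24, 0.45, 0.40, 0.49, 0.37 and 0.14, the lowest of their adjusted p being 0.42 (edgeR). The sliding clamp *pcna* was at 0.62 (edgeR adjusted p = 0.17) and the licensing factor *cdt1* at 0.05 (edgeR adjusted p = 0.96). *cdc45*, which joins the same helicase, rose by 0.77, and *rrm2*, which makes deoxynucleotides, by 1.53 (edgeR adjusted p = 0.017 and 0.016). This subset was singled out after its values were seen.

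Within the 24-month group the hours fall into fish labels of 1 letter (2, 8, 14 and 20 h) and of 2 letters (5, 11, 17 and 23 h). The 50 genes summed to 1571 to 2445 CPM in the first and 1097 to 1771 CPM in the second, against 667 to 999 CPM at 20 months. Against the same 5 libraries, 36 members rose with the 1-letter labels alone (median log2 fold change 1.47) and 3 with the 2-letter labels alone (median 0.73), where 34 had an unadjusted p under 0.05 and DESeq2 passed 30. Over all genes tested edgeR passed 568 as higher with the 1-letter and 36 with the 2-letter labels. With the 2-letter labels 1023 of 19725 genes were higher at the unadjusted limit, and DESeq2 passed 556 in either direction. The difference between the label sets was not tested, and hours and labels cannot be told apart in it. In 8 to 17 h alone 12 members rose, and in 20 to 5 h alone 28, where 137 of 19715 and 247 of 19811 genes tested were higher.

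The count also depended on the 20-month libraries. Against the Sham libraries alone 8 members rose. Against the 0pt libraries alone, edgeR passed 0 members and DESeq2 27. With the libraries of fish labels x and z summed, which left 3 samples, edgeR again passed 0 and DESeq2 32, while 35 had an unadjusted p under 0.05 in edgeR under each of these 2 settings. The median log2 fold change of the list was 1.08, 1.29 and 1.20 under these 3 settings. Over all genes tested edgeR passed 136, 22 and 20 as higher under them. With 0pt alone 1812 of 20733 genes were higher at the unadjusted limit, and with labels summed 1216 of 20481. DESeq2 passed 712 and 511 genes in either direction under these last 2 settings. Without Sham x 18 members rose. Without both libraries that stand apart, 32 of 50 rose and the median was 1.32.

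The 4 libraries of 13-month JpA skin with another date give context only, with no test. In them the list summed to 324, 420, 440 and 1582 CPM, and *top2a* was at 2.64, 5.18, 7.78 and 45.5 CPM, so 3 of the 4 were below all libraries of 20 months and 1 lay within the 24-month range.

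The genes of the DNA repair list moved less. Of 48 tested, 3 rose, none fell and 45 did not pass, with a median log2 fold change of 0.29, where 1.58% of all genes were higher. The list leaves out *rad54b*, which rose by 1.63 ± 0.26 without overlap (SE; edgeR adjusted p = 0.0018). At an unadjusted p under 0.05 it was 18 of the 48 higher, where 1691 of all 20144 genes tested were, and DESeq2 passed 7. With 1-letter labels alone 11 rose, and edgeR passed 0 with 2-letter labels alone, against Sham alone, against 0pt alone or with labels summed (3, 11, 15 and 12 higher at an unadjusted p under 0.05). Over all genes tested in these settings (19725 to 20733), 1023, 1573, 1812 and 1216 were higher at that limit. *xrcc6*, which encodes the Ku70 end-joining protein, was at 21.1, 36.4 and 62 CPM at 24 months, against 21.8, 17.5, 22.5, 17.8 and 12.5 CPM at 20 months, with an overlap of 1 library of 5 h (log2 fold change 1.09 ± 0.23 SE; edgeR adjusted p = 0.012). *ung*, the uracil glycosylase of base excision repair, rose by 1.07 ± 0.23 (SE; edgeR adjusted p = 0.012). *fanci*, of the crosslink repair pathway, rose by 0.92 ± 0.23 (SE; edgeR adjusted p = 0.027), which was lost without Sham x, 0pt z or Sham z (adjusted p = 0.071, 0.076 and 0.11).

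The 32 lists of pathways and cell types were chosen with earlier results of these data known. In 21 of them no member passed in edgeR. Collagens (26 tested) and oxidative phosphorylation (48) were among these, with 2 genes each at an unadjusted p under 0.05, and DESeq2 passed 0 of either. The same held for cytosolic ribosomal proteins (71), of which edgeR had 0 at an unadjusted p under 0.05 and DESeq2 passed 23 as lower. Their median log2 fold change in edgeR was 0.01. That value includes library ag, whose sum of 289637 CPM was the highest of all. The median sum was 71942 CPM at 24 months and 84270 CPM at 20 months, so the value of 0.01 does not show that these genes were unchanged. Leukocytes (15) and keratinocytes and mucous cells (14) also had no member past the adjusted p, with 2 and 3 at an unadjusted p under 0.05 and 0 and 1 by DESeq2. In these 2 lists 24 of 39 and 28 of 42 members matched no symbol and were not tested. For collagens it was 20 of 47 and for oxidative phosphorylation 45 of 93. An unadjusted p under 0.05 was found for 3177 of all 20144 genes tested, 1691 higher and 1486 lower. Unadjusted counts of the lists are to be read against that share. Of all genes tested 2.72% passed the adjusted p, and short lists can be without a passing member at that share. An empty list therefore does not show that a pathway or cell type was unchanged. Of the cell type lists only skeletal muscle and Schwann cells and neurons had a member that passed in edgeR, and DESeq2 also passed 1 each in keratinocytes and mucous cells, iridophores and xanthophores, and endothelial cells.

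**Figure D2:**
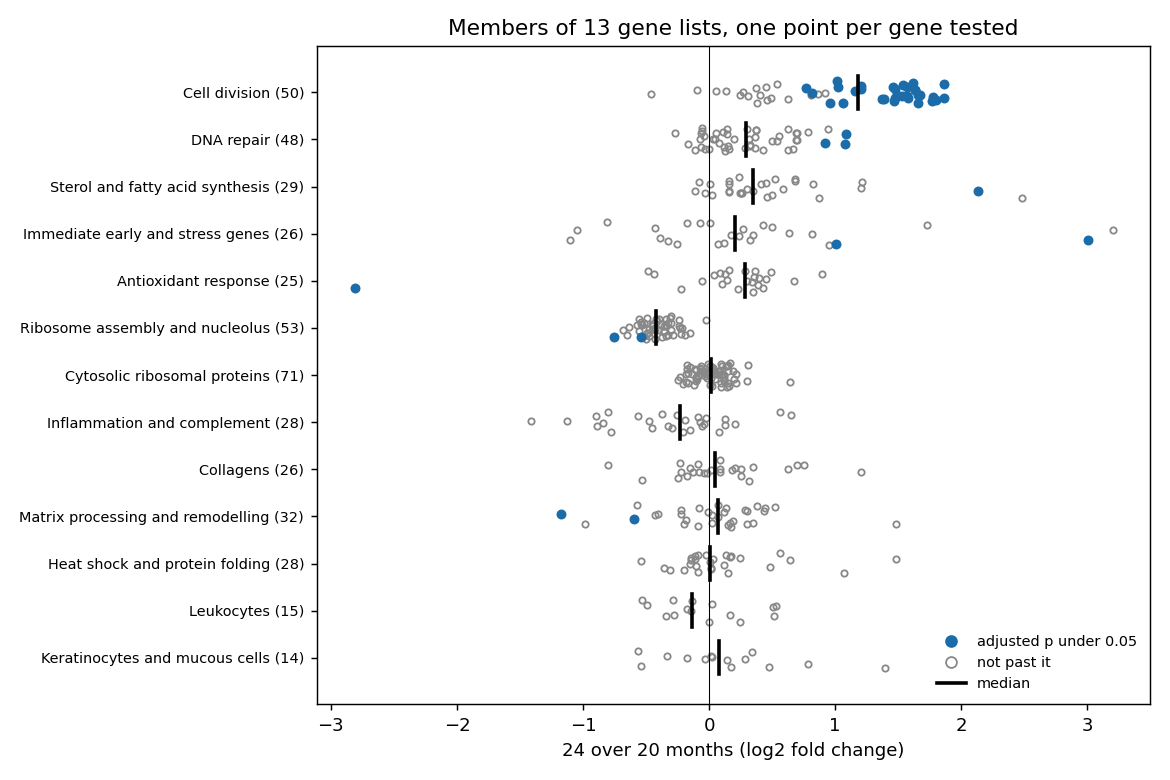
Log2 fold change, 24 over 20 months, of each tested member of 13 lists, with the number tested in brackets. Filled points passed the adjusted p, bars mark the medians, and cell division has 32 filled points to the right while the 53 genes of ribosome assembly all lie left of 0.

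All 53 genes of ribosome assembly and the nucleolus had a negative log2 fold change, with a median of -0.42, but 2 fell by the test and 51 did not pass. These were *utp4*, of the small subunit processome, and *rrp8*, a nucleolar methyltransferase. *utp4* was at 40.6, 64.3 and 123 CPM at 24 months, against 95.5, 114, 103, 131 and 108 CPM at 20 months. It fell by 0.75 ± 0.19 on the log2 scale (SE; edgeR adjusted p = 0.03), which did not pass without any 1 of 0pt x, Sham x, 0pt z or Sham z (adjusted p = 0.061, 0.059, 0.089 and 0.073). *rrp8* fell by 0.54 (edgeR adjusted p = 0.037), and was not past it without Sham z (adjusted p = 0.23) and without 5 other libraries. The summed level was 7334 CPM in Sham z, against 3941 to 4707 CPM in the other 20-month libraries. Without Sham z the median of the list was -0.05, 19 of the 53 genes were positive and none passed, with 3 lower at an unadjusted p under 0.05. Against the 0pt libraries alone 38 of the 53 were positive, with a median of 0.26, and against the Sham libraries alone the median was -0.69, with 43 lower at an unadjusted p under 0.05.

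Few members of the remaining lists passed. Of 29 genes of sterol and fatty acid synthesis edgeR passed 1 and DESeq2 5 as higher, 12 were higher at an unadjusted p under 0.05, and the median log2 fold change was 0.35. At that unadjusted limit 1691 of all 20144 genes tested were higher. *igf1*, the insulin-like growth factor, rose by 0.91 ± 0.22 (SE; edgeR adjusted p = 0.023), lost without Sham x or Sham z (adjusted p = 0.08 and 0.071). In the muscle list 39 of 53 members matched no symbol, and of the 13 tested 1 rose and 1 fell. *actc1*, a sarcomeric actin, rose by 2.03 (edgeR adjusted p = 0.031), a call lost without any 1 of the 20-month libraries (adjusted p between 0.053 and 0.089). *ampd1*, the AMP deaminase of muscle, fell by 1.42 (edgeR adjusted p = 0.047) and lost its call in 15 of the 21 fits that left out a library. The muscle list summed to 985 to 3127 CPM at 24 months and 923 to 3546 CPM at 20 months, and its part in these was not tested. In the matrix list (32) *p4ha2*, a collagen prolyl hydroxylase subunit, fell by 0.60 (edgeR adjusted p = 0.014), lost without Sham z (adjusted p = 0.072). *mmp19*, a matrix metalloproteinase, fell by 1.17 (edgeR adjusted p = 0.0499), lost in 17 of the 21 such fits, and had -0.59 without Sham z.

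The second question was which genes vary over the day, so that they can be held apart from those that differ with age. A cosine of a 24 h period was tested in the 16 libraries of 24 months (edgeR), and 422 of the 20144 genes (2.09%) were rhythmic, with a median fitted trough-to-peak difference of 1.62 on the log2 scale. The count ran between 175 and 1645 when a 24-month library was left out, the highest without library ah of 17 h and the lowest without ad of 11 h. Without ag it was 835. With the hour as a factor of 8 levels 729 genes passed.

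Few genes were in both sets. Of the 422 rhythmic genes 9 passed the age comparison (2.13%), close to the 2.72% of all genes tested, and 6 were called. The age comparison had no term for the hour, so the daily swing of a rhythmic gene widened its spread. Such a gene was less likely to pass, and how far the count of 9 follows from this was not tested. With a cosine and sine of the hour added, 756 genes passed for the daily mean (edgeR), 407 of them called. The overlap with the rhythmic genes was not counted in that fit. Of the 9, *egr3* and *hunk* were called higher, and *mmp19* was lower without being called. *hunk*, a kinase of the AMPK family chosen after its values were seen, was at 12.5, 26.5 and 75.1 CPM at 24 months, with its highest value at 23 h, against 9.73, 15.7, 10.6, 12.8 and 6.24 CPM at 20 months. Its call was lost without Sham n, Sham x, 0pt z or Sham z (edgeR adjusted p = 0.082, 0.08, 0.06 and 0.12). Rhythmic genes were not nearer to 0 in fold than the rest, with a median absolute log2 fold change of 0.31, against 0.21 over all genes.

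With the cosine fitted in the 24-month libraries, the level at each of the 8 hours was set against the 20-month mean, and 54 genes (0.268%) passed at every hour with 1 sign, 42 higher and 12 lower. Of these 50 were called, 34 had groups that did not overlap and 1 was rhythmic. The 20-month mean pools libraries with no hour given, and *per1*, *per3* and *clock* differed between its Sham and 0pt libraries. Passing at every hour therefore does not remove the unknown hours of the 20-month fish from the difference. The rule includes the hour of the smallest fitted difference. Genes with a large daily difference are therefore less likely to meet it, and how far the count of rhythmic genes follows from the rule was not tested. Over all genes tested 77 were higher without overlap (0.382%) and 31 lower (0.154%). Of the 54, 19 have a symbol. In mammals *ska1*, *ncapg*, *nusap1*, *tacc3*, *kif20b*, *knl1*, *plk4*, *haus3*, *cenpt* and *ncapg2* act in mitosis and *rad54b* in recombination, and the others were *lrba*, *mtfr2*, *cd109*, *arhgap19*, *ccdc39*, *hmox1*, *cnn3* and *cpb1*. For *ncapg* the fitted difference ran over the hours from 1.39 to 1.85 on the log2 scale, and for *ska1* from 1.44 to 2.37. Only *ncapg* and *nusap1* of the 50 listed division genes are in the 54, and 2 of the 50 were rhythmic, *e2f1* and *cdt1*, which did not pass the age comparison.

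The count of 54 was unsteady. It was 136 without library ag and 121 without both libraries that stand apart, and 16 to 33 without any 1 of Sham x, 0pt x and 0pt z or of 8 24-month libraries (ab, m, o, r, s, u, v and w). With a second cosine of 12 h it was 7, all higher, and with labels x and z summed it was 19.

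**Figure D3:**
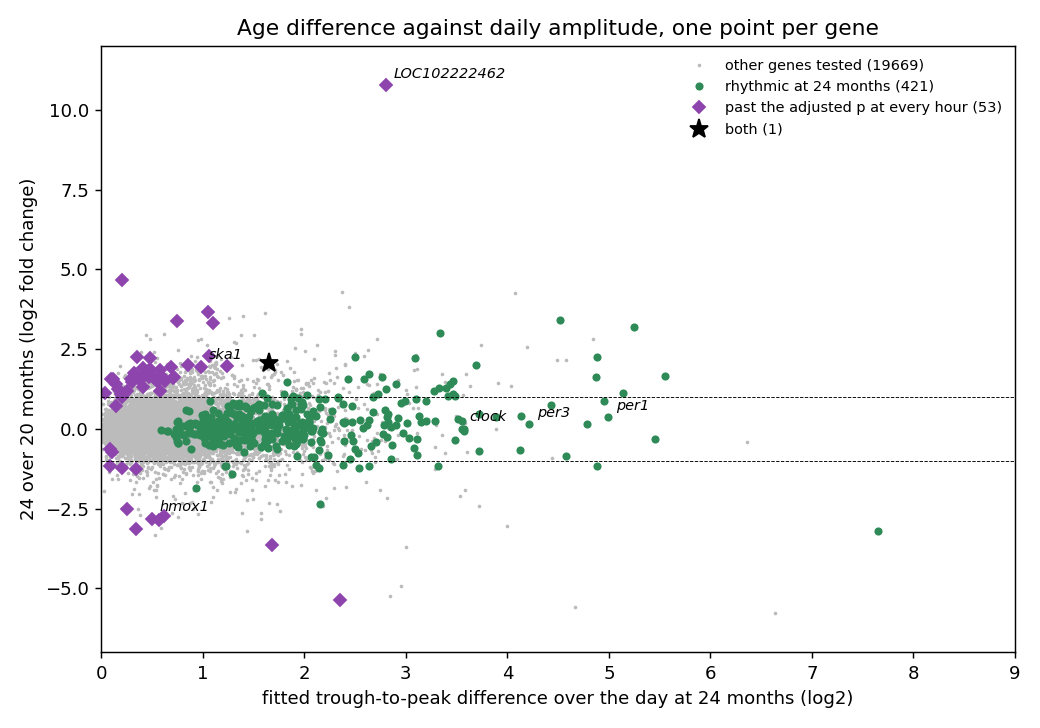
Log2 fold change, 24 over 20 months, against the fitted trough-to-peak difference over the day at 24 months, 1 point per gene tested, with dashed lines at a 2-fold change. Genes past the adjusted p at every hour (diamonds) lie mostly at small daily differences, which follows in part from the rule that selects them. *per1*, *per3* and *clock* at large daily differences lie near 0 on the age axis, and 2 genes lie outside the axes. The age values of *per1*, *per3* and *clock* pool all hours and average the Sham and 0pt libraries, which lay apart for these genes. A position near 0 therefore does not show that the ages agreed.

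None of 13 clock genes tested passed the age comparison in edgeR, with 1 at an unadjusted p under 0.05, *per2*, which DESeq2 passed. That comparison had no term for the hour, which made genes with a large daily swing less likely to pass. Of the 13, 7 were rhythmic at 24 months. Most listed clock genes matched no symbol and were not tested, 12 of 15 activators, 17 of 21 repressors and 14 of 20 output factors and kinases. The repressors *per1* and *per3* had fitted trough-to-peak differences of 5.00 and 4.22 on the log2 scale and fitted peaks at hours 5.25 and 7.68 (edgeR adjusted p = 1.4e-06 and 9.4e-09). The activator *clock* and *nfil3*, a repressor of D-box genes, had differences of 3.55 and 2.66 and peaks at 16.5 and 18.7 h (edgeR adjusted p = 2.2e-04 and 1.7e-05). *per2*, a repressor that light induces in fish, peaked at 12 h (edgeR adjusted p = 0.0086). The kinase gene *csnk1d* and the output factor *hlf* also passed (edgeR adjusted p = 0.019 and 0.023).

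The 20-month libraries did not share 1 state of the clock. *per1* ran from 6.01 CPM at 20 h to 308 CPM at 5 h at 24 months, against 22.2, 22.8 and 26.6 CPM in the 20-month Sham libraries n, x and z and 105.6 and 147 CPM in the 0pt libraries x and z. *per3* ran from 13 to 316 CPM at 24 months, against 38.8, 32.1 and 32 CPM in Sham and 183 and 240 CPM in 0pt. *clock* ran from 3.46 to 61.3 CPM at 24 months, against 39, 43.5 and 58.2 CPM in Sham and 7.34 and 9.13 CPM in 0pt.

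The levels of *per1* and *per3* were higher and that of *clock* lower in both 0pt libraries than in all 3 Sham libraries. *nfil3*, *per2* and *hlf* were also lower in both 0pt libraries, by narrow gaps for *per2* and *hlf*. *nfil3* was at 7.67, 9.94 and 13 CPM in Sham n, x and z, against 4.5 and 4.03 CPM in 0pt x and z. *hlf* was at 268.5, 149.7 and 140.5 CPM, against 109.6 and 138.2 CPM. The designations have no hour in the labels and the difference between them was not tested. *per2* ran from 17.2 CPM at 2 h to 224 CPM at 11 h at 24 months, with a median of 77.4 CPM, against 35.6, 30.9 and 43.1 CPM in Sham and 19.4 and 29.1 CPM in 0pt. Its log2 fold change of 1.56 ± 0.50 (SE) did not pass (edgeR adjusted p = 0.094).

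**Figure D4:**
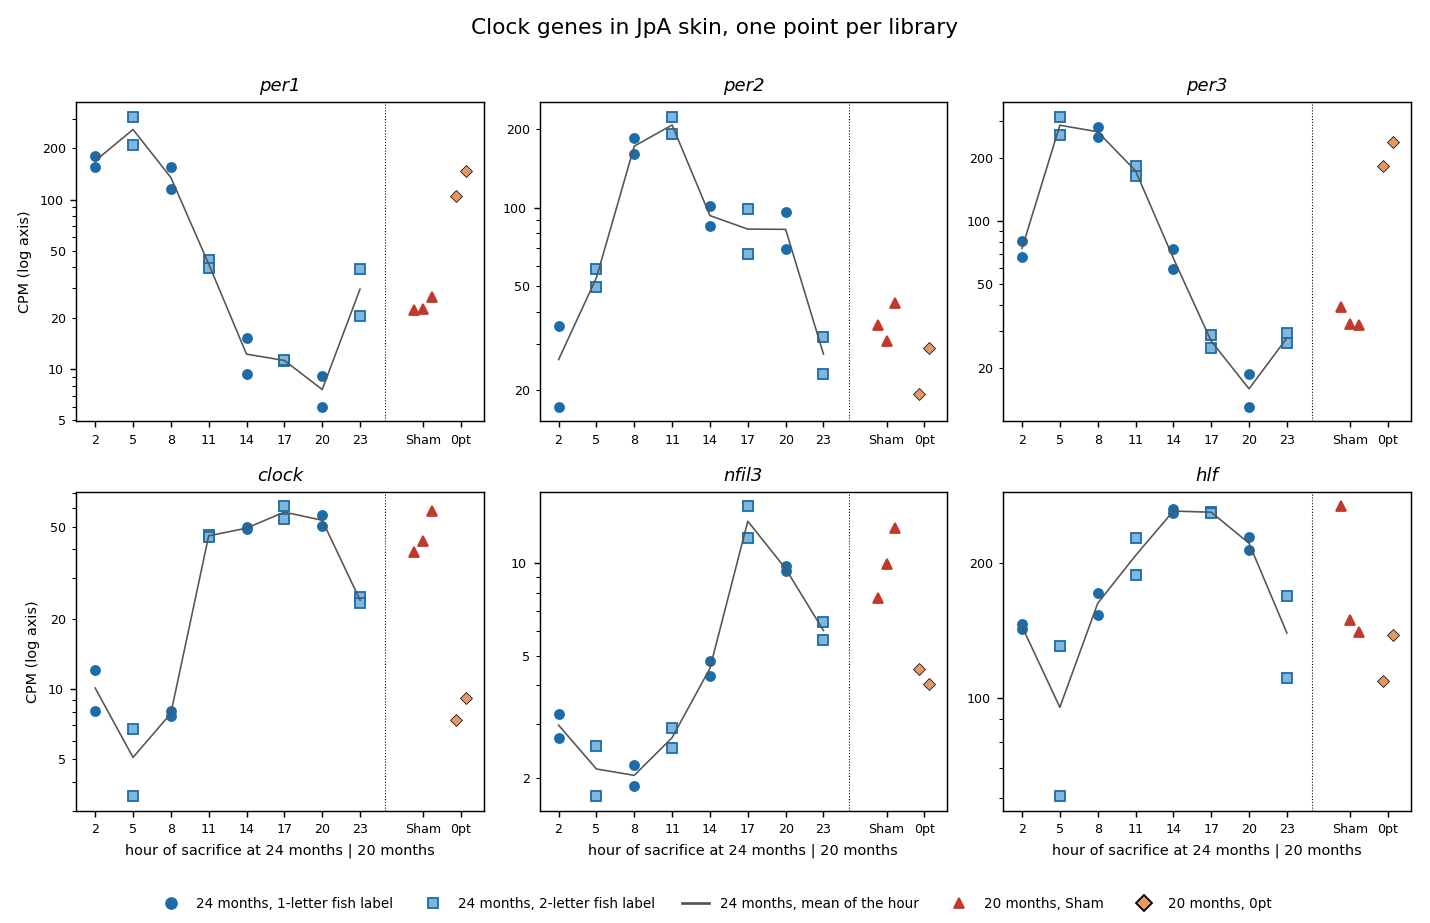
CPM (log axis) of 6 clock genes by hour of sacrifice at 24 months, with the 3 Sham and 2 0pt libraries of 20 months to the right, 1 point per library and a line through the hourly means. *per1*, *per2*, *per3* and *clock* span more than 1 order of magnitude over the day. The Sham and 0pt libraries do not overlap for any of the 6 genes, and the gaps are narrow for *per2* and *hlf*.

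Outside the clock, the genes with a symbol and the smallest p for time of day were *abcc5*, *aspa*, *spsb3*, *ppp1r1b*, *sik2* and *mxd3*. *abcc5*, an exporter of organic anions, ran from 6.91 CPM at 20 h to 61 CPM at 8 h. At 20 months it was at 20.2, 10.8 and 15.7 CPM in Sham n, x and z, and at 35 and 50.7 CPM in 0pt x and z. Its age log2 fold change of 0.11 (edgeR adjusted p = 0.95) averages these and does not show that the ages agreed. *aspa*, the aspartoacylase, ran from 0.712 CPM at 20 h to 15.2 CPM at 5 h, against 2.21 to 5.39 CPM at 20 months. *mxd3*, an antagonist of Myc, ran from 4.23 CPM at 11 h to 21.4 CPM at 20 h, against 3.53 to 9.32 CPM at 20 months. None of these 6 passed the age comparison, the lowest adjusted p being 0.15 for *ppp1r1b*, which encodes a phosphatase inhibitor.

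Immediate early genes, which cells induce within minutes of a stimulus, were rhythmic in 8 of 26 cases tested, where the share of all genes was 2.09%. Of these, *egr1*, *egr3*, *fosb*, *fosl2*, *jund*, *dusp5* and *dusp6* had fitted peaks between hours 5.92 and 7.44, and the nuclear receptor gene *nr4a3* at hour 10.6. In the unfolded protein response, 5 of 24 were rhythmic, the chaperone genes *pdia4*, *pdia6*, *creld2* and *sdf2l1* with peaks between hours 16 and 17.4 and the transcription factor *atf6b* at hour 7.97. The age comparison passed 2 members of the first list and 0 of the second, of which 2 had an unadjusted p under 0.05 in edgeR and DESeq2 passed 1.

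*egr3* was the rhythmic member that was also called. It was at 0.927, 9.66 and 36.8 CPM at 24 months, with the lowest value at 17 h and the highest at 11 h, against 0.442, 1.31, 1.86, 1.03 and 2.96 CPM at 20 months (log2 fold change 3.01 ± 0.76 SE; edgeR adjusted p = 0.034), and the call was lost without any 1 of the 20-month libraries (adjusted p between 0.058 and 0.083). *egr2*, which also controls myelin genes in Schwann cells and is on that list too, was not rhythmic and rose by 1.01 ± 0.22 (SE; edgeR adjusted p = 0.015).

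Several genes lower at 24 months, among them *hmox1*, *ptx3* and *acod1*, were highest in library Sham z. *hmox1*, the heme oxygenase, which lies on chromosome 16 from 20841798 to 20844441, was the 1 antioxidant gene of 25 tested that passed. It was at 2.7, 5.64 and 11.2 CPM at 24 months, against 17.9 CPM in Sham n, 12.5 in 0pt x, 41.2 in Sham x, 6.86 in 0pt z and 127 in Sham z. Only 0pt z lay within the 24-month range. *hmox1* fell by 2.81 ± 0.40 on the log2 scale (SE; edgeR adjusted p = 8.4e-04) and passed at every hour. It stayed past the adjusted p without any 1 library, with -1.74 without Sham z (edgeR adjusted p = 0.015), and did not pass against the 0pt libraries alone (-0.72, edgeR adjusted p = 0.44).

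*ptx3* and *acod1* did not pass without Sham z. *ptx3*, a pentraxin made in inflammation, was at 60.3, 85.5 and 177 CPM at 24 months, against 208, 118, 215, 80.3 and 1135 CPM in Sham n, 0pt x, Sham x, 0pt z and Sham z (log2 fold change -1.93 ± 0.35 SE; edgeR adjusted p = 0.006). Without Sham z it was -0.75 (edgeR adjusted p = 0.14). *acod1*, which makes itaconate in activated macrophages of mammals and was chosen after its values were seen, fell by 2.75 (edgeR adjusted p = 0.0073), and had -1.31 without Sham z (adjusted p = 0.22).

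The leukocyte list summed to 1614 to 5419 CPM at 24 months and 2317 to 3072 CPM in 4 libraries of 20 months, and to 1069 CPM in Sham z, the lowest of all. Of the sum in Sham z, *cd74* alone made up 723 CPM. Its members disagreed there. *cd74* and *mpeg1* (19.8 CPM) were at their lowest of all libraries, and *marco* (32.6 CPM) and *cd8a* (20.45 CPM) at their highest. The sum therefore does not show whether Sham z held fewer leukocytes. The part of leukocytes in these results was not tested. No gene of the inflammation and complement list (28 tested) passed in edgeR or DESeq2, with 6 at an unadjusted p under 0.05 in edgeR and a median of -0.23. Of all 20144 genes tested, 3177 were under that unadjusted limit.

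**Figure D5:**
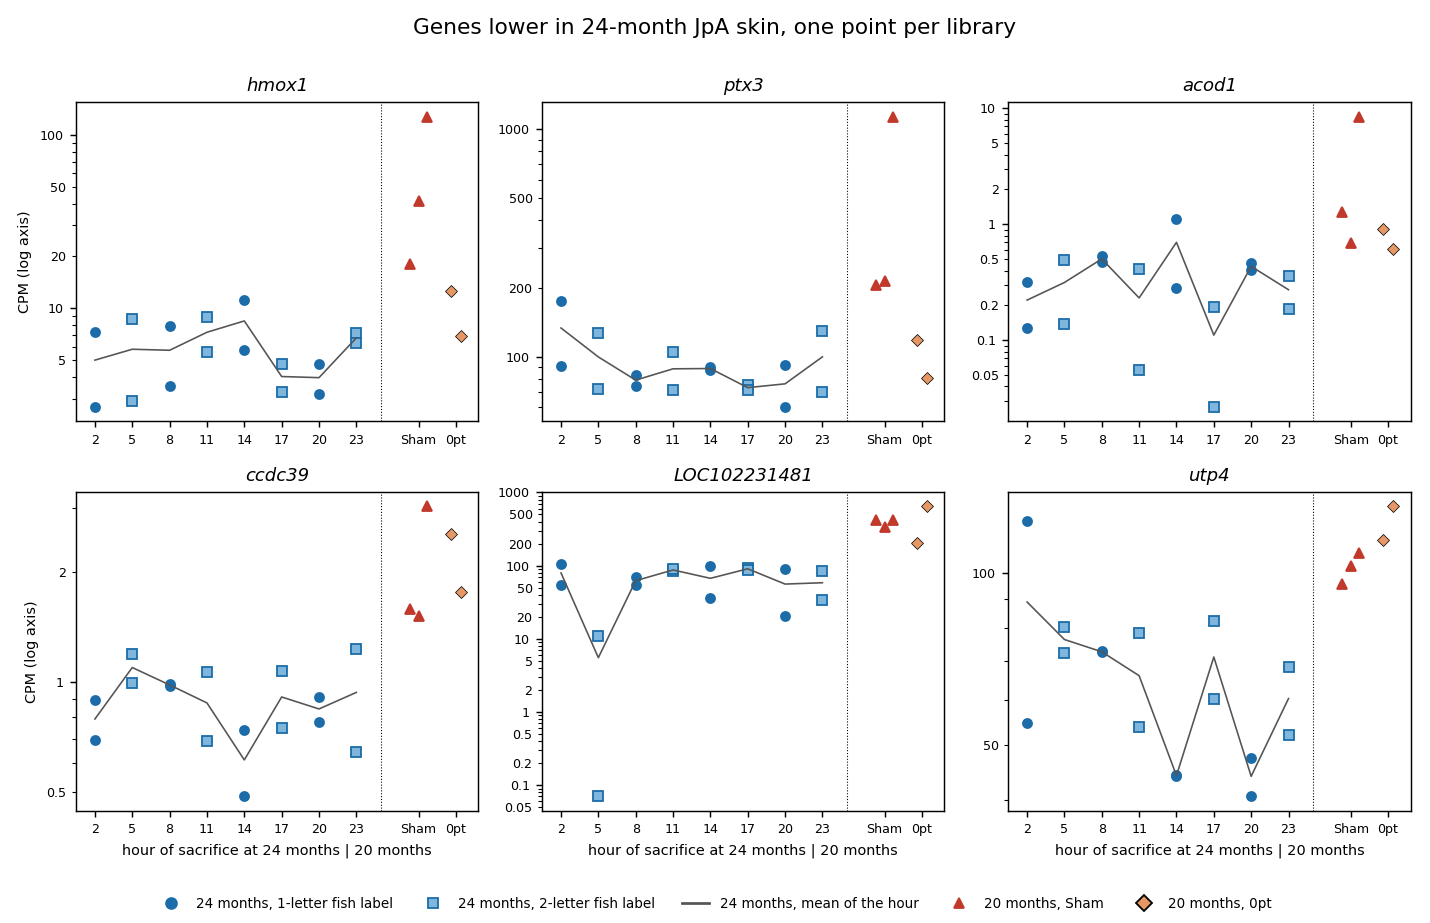
CPM (log axis) of 6 genes lower at 24 months by hour of sacrifice, with 20 months to the right, 1 point per library and a line through the hourly means. Sham z is the highest red triangle for *hmox1* (127 CPM), *ptx3* (1135 CPM) and *acod1* (8.51 CPM), while *ccdc39* and LOC102231481 are without overlap.

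By the naming rule only *ccdc39*, a factor for the assembly of motile cilia, represents the lower genes with a symbol and no overlap. It was at 0.487, 0.9 and 1.23 CPM at 24 months, against 1.58, 2.55, 1.52, 1.76 and 3.03 CPM at 20 months (log2 fold change -1.24 ± 0.20 SE; edgeR adjusted p = 0.0024), and it passed at every hour. Of the 102 called lower, 8 had groups that did not overlap, and 52 had a mean under 1 CPM at 24 months. Chosen after their values were seen, *cpb1*, a carboxypeptidase of the exocrine pancreas in mammals, and *mlip*, a lamin-interacting gene of muscle, also fell. *cpb1* was at 0.294 to 1.39 CPM at 24 months, against 1.77, 4.18, 0.888, 0.959 and 11.2 CPM (log2 fold change -2.51, edgeR adjusted p = 0.0018; -1.55 without Sham z, adjusted p = 0.031). *mlip* was at 15.9 to 81.3 CPM, against 171, 110, 130, 53 and 164 CPM (log2 fold change -1.57, edgeR adjusted p = 0.0073).

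The 5 called genes with the highest mean CPM, not corrected for length, were *ptx3* and 4 genes without a name in the annotation. LOC102222462 lies on chromosome 4 from 3062837 to 3066201 and had by far the widest range. It was at 1.94, 85.8 and 2558 CPM at 24 months, against 0.258 CPM in Sham n, 0.584 in Sham z and 0 in the other 3 libraries of 20 months (edgeR adjusted p = 0.013). The fitted log2 fold change of 10.8 depends on the prior count because of these zeros. The libraries of 8 h held 85.9 and 2558 CPM, and the gene was not rhythmic (edgeR adjusted p = 0.42). In the 13-month libraries it was at 0, 0.0176, 0.0878 and 234 CPM.

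LOC102231352 and LOC102222797 were also called higher. LOC102231352 was at 117 to 356 CPM at 24 months, against 95.3, 104.4, 74.3, 136 and 40.8 CPM at 20 months (log2 fold change 1.08, edgeR adjusted p = 0.02), lost without Sham x or Sham z (adjusted p = 0.066 and 0.075). LOC102222797 was at 57.1 to 422 CPM, against 46.4 to 71.3 CPM (log2 fold change 1.66, edgeR adjusted p = 0.034), lost without any 1 of the 20-month libraries (adjusted p between 0.064 and 0.089). LOC102230208 was called lower, with 56 to 203 CPM, against 587, 199, 166, 92.2 and 384 CPM (log2 fold change -1.43, edgeR adjusted p = 0.012), lost without Sham n or Sham z (adjusted p = 0.083 and 0.057).

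A pair of unnamed genes, chosen after their values were seen, had groups far apart. LOC102231481, on chromosome 14 from 22087794 to 22098424, was at 0.0704, 76.4 and 104.3 CPM at 24 months, against 423, 201, 341, 651 and 419 CPM at 20 months (log2 fold change -2.68 ± 0.54 SE; edgeR adjusted p = 0.0097). Both lowest values, 0.0704 and 11 CPM, came from 5 h, and the 13-month libraries held 616 to 875 CPM. LOC102233878, on chromosome 6 from 28881058 to 28884946, was at 42.6, 63.8 and 103.7 CPM at 24 months, against 22.9, 17.2, 14.8, 19 and 17.7 CPM at 20 months (log2 fold change 1.92 ± 0.20 SE; edgeR adjusted p = 3.6e-05). It passed at every hour, was not rhythmic (edgeR adjusted p = 0.49) and passed in all alternatives run.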

How the data were processed

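The deposited table holds raw counts for each NCBI gene model, made by the authors from paired-end TruSeq mRNA reads trimmed with Perl scripts, mapped with TopHat2 to *X. maculatus* genome 5.0 and counted with featureCounts, whose versions are not given in the sources used here. All 27242 gene identifiers matched the X_maculatus-5.0-male annotation of NCBI, from which symbols and positions were taken. The analysis used R 4.3.3, edgeR 4.0.16, limma 3.58.1, DESeq2 1.42.0 and, for figures, Python 3.11.15 with matplotlib 3.10.9. The filter was filterByExpr (smallest count 10) and the scaling TMM. The quasi-likelihood test of edgeR gave 24 over 20 months, with Benjamini-Hochberg adjustment over all genes tested. CPM values use the TMM scaling. ROC areas used log2 CPM with a prior count of 2. Time of day used a cosine and a sine of 24 h in the 24-month libraries. Named genes were the 10 called with the largest fold in each direction (symbol, mean of at least 1 CPM, no overlap), for each list the members of lowest adjusted p (4 at most), the clock genes, the 10 with a symbol and smallest p for time of day, and the 5 called with the highest mean CPM. Others are named as chosen after their values were seen. Lists are described by counts and medians, with no set test. Members and lists were chosen with earlier results of these data known. The scripts were tested on simulated data. Promoter motifs were not analysed here. The alternatives were other scalings, filters, tests and limits, subsets of either age, summed fish labels, and leaving out each library. One alternative, leaving out both libraries that stand apart, was chosen after seeing the data. Some genes within the naming rule are not reported here.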

Additional observations from a re-analysis of the deposited data

Results flagged for a closer look

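Among 108 quantities reported or named and examined in the 5 libraries of 20 months, 15 had 1 library far from the other 4, its gap to the nearest exceeding 0.71 of the whole range. The nominal chance rate is about 1 in 20, but the same limit flagged 10.7% of all 20144 genes tested. The 15 are to be read against that share. Of the 15, 11 were high in Sham z, among them *acod1*, which was chosen after its values were seen. *ptx3* was at 1135 CPM there (nearest library 215 CPM), *hmox1* at 127 CPM (nearest 41.2), *rrp8* at 48.3 CPM (nearest 30.4) and *acod1* at 8.51 CPM (nearest 1.29). The ribosome assembly list summed to 7334 CPM in Sham z (nearest 4707 CPM). Of the immediate early genes, *fosl2* was at 258 CPM in Sham z (nearest 84.8), *dusp5* at 95.5 CPM (nearest 14.7), *dusp6* at 77.5 CPM (nearest 46.7), *nr4a3* at 46.6 CPM (nearest 9.82), *jund* at 29.7 CPM (nearest 9.76) and *fosb* at 8.29 CPM (nearest 2.15). In Sham x the liver genes *fgb* and *plg* were at 12.5 CPM (nearest 1.61) and 3.06 CPM (nearest 0.292). *hlf* was at 269 CPM in Sham n (nearest 150 CPM) and *lrba* at 116.8 CPM in 0pt z (nearest 73.6). Over all 20144 genes tested the same limit was passed high by 1352 and low by 276 genes in Sham z (8.08%), against 0.536% to 0.844% of genes in each of the other 4 libraries.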

How the results depend on the processing

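Calls depended on which libraries and tests were used. Each setting was counted anew, so its genes need not be among those of the main fit. The 341 called genes became 79 with the 0pt libraries alone, 65 with fish labels summed, 522 with 1-letter and 40 with 2-letter labels alone and 169 in 8 to 17 h. The 548 genes past the adjusted p became 90, 76, 982, 43 and 201 under the same settings and 1065 with DESeq2. Of the 341 themselves, 30, 49, 287, 28 and 133 were also called under these 5 settings in the same order. Of the 548 themselves, 37, 67, 431, 31 and 163 also passed, and 524 with DESeq2. The 54 genes at every hour became 19 with labels summed, 7 with 24 h and 12 h cosines and 121 without both libraries that stand apart. The 422 rhythmic genes became 835 without ag and 729 with the hour as a factor. The 32 cell division genes became 0 with 0pt alone, 0 with labels summed, 3 with 2-letter labels, 12 in 8 to 17 h and 8 with Sham alone. The 108 genes without overlap became 1615 with 0pt alone, 283 with labels summed, 254 without both libraries that stand apart, 632 with 1-letter and 236 with 2-letter labels, 435 in 20 to 5 h, 333 in 8 to 17 h and 316 with Sham alone, since fewer libraries overlap less. Other causes were not tested. Leaving out a library gave 183 to 416 called, 228 to 1005 past the adjusted p (the highest without ag, where 531 were lower), 16 to 136 at every hour, 175 to 1645 rhythmic, 18 to 33 cell division and 109 to 184 without overlap, and 107 of the 341 calls remained in all of these. The share called higher, 70.1%, was 25.3% with 0pt, 38.4% with Sham, 30.8% with labels summed, 85% with 2-letter labels and 58% with no filter. Of the named genes past the adjusted p, 37 did not pass with 0pt alone, 29 with labels summed, 33 with 2-letter labels and 16 without Sham z. The direction of *mmp19* reversed to 0.21 with 0pt alone. No paired analysis was possible because the labels give no replicate number shared by the ages.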
